A study of Mus musculus with 12 samples.

Results

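The water transport genes of the kidney were followed through all 4 groups of an angiotensin II experiment in mice. They comprise 6 aquaporins (Aqp1, Aqp2, Aqp3, Aqp4, Aqp7 and Aqp11), the vasopressin receptors Avpr2 and Avpr1a, and the urea transporter gene Slc14a2. Every probe set annotated to 1 of these 9 genes and to no other gene was taken, which gave 19 of the 45037 probe sets tested, for 9 of 18193 genes. Whole kidneys of wild-type mice (WT) and of mice deficient in the AT1A angiotensin receptor (AGTR1A-KO, here KO) were compared at baseline and after infusion of angiotensin II (ANG II, 1 ug/kg/min) for 2 days. All mice were males aged 2.5 months of the F1 (C57BL6 X 129/SvEv) strain on the NS diet, as the labels spell it, and the labels do not say whether baseline mice received a vehicle. Total RNA of snap-frozen kidneys was hybridised to Affymetrix Mouse Genome 430 2.0 arrays, with 3 mice and so 3 arrays in each of the 4 groups. The labels name no cell type to which the deficiency is limited.

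Water leaves the tubule through aquaporins, which are channels in the cell membrane. Aqp1 lines the proximal tubule and thin descending limb and conducts water continuously, whereas water uptake in the collecting duct is set by vasopressin. Vasopressin binds the V2 receptor (Avpr2) on principal cells and raises cAMP, which moves Aqp2 to the apical membrane and increases its transcription, and water then leaves through Aqp3 and Aqp4 on the basolateral side. Slc14a2 encodes the UT-A urea transporters, which carry urea across the inner medullary collecting duct and thin limb and so help to concentrate the urine.

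Each value is the deposited ratio of an array to the median of that probe set over the 12 arrays, so a ratio of 1 is the middle of the 12 kidneys and levels of different genes cannot be set against each other. Nor can the ratios show whether a gene, or a defining marker of the kidney, was above background. Changes are log2 differences of group means with moderated standard errors, n = 3 per group, and "called" means a Benjamini-Hochberg adjusted p under 0.05 over all 45037 probe sets in limma. The single Agtr1a probe set read 1.36 to 1.40 at WT baseline, 0.923 to 1.04 at KO baseline, 0.957 to 1.00 in WT with ANG II and 0.917 to 1.05 in KO with ANG II, so it separated the genotypes at baseline and not under ANG II. The SD of log2 ratios over an array was 0.268 to 0.342 in WT ANG II and 0.164 to 0.262 on the arrays of the other 3 groups, and the 3′ minus 5′ difference of actin and Gapdh control probe sets was 0.036 to 0.067 in WT ANG II against -0.018 to -0.0074 at WT baseline. The part of these differences in the results was not tested. In whole kidney, fewer cells of a type and less RNA per cell cannot be told apart, which holds for every change given here.

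Promoters were taken from RefSeq (GRCm38.p6), and 7 of the 9 genes matched. Aqp1, Aqp2, Aqp3 and Aqp7 are shown because Aqp2 is the textbook cAMP target, while Aqp1 moved against Aqp3 and Aqp7 in WT kidneys. The 250 bases before the annotated start are given 5′ to 3′ on the gene's strand, at chr6:55336049-55336298 (+) for Aqp1, chr15:99578806-99579055 (+) for Aqp2, chr4:41098184-41098433 (-) for Aqp3 and chr4:41048137-41048386 (-) for Aqp7. Capitals mark matches on either strand to TGACG (reverse complement CGTCA), the core of the cAMP response element, to GATAA, the motif of GATA factors, whose reverse complement is TTATC, and to AGGTCA, the motif of nuclear receptors, whose reverse complement is TGACCT. The matches do not overlap one another.
Aqp1: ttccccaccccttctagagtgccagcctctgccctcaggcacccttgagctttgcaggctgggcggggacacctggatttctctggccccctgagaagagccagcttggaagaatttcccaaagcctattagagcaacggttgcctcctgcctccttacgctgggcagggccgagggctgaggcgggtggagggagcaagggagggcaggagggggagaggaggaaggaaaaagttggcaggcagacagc
Aqp2: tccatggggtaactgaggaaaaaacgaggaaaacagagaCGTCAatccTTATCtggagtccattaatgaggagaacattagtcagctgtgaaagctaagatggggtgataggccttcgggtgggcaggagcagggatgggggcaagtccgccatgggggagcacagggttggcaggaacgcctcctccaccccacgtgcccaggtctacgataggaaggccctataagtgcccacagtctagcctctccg
Aqp3: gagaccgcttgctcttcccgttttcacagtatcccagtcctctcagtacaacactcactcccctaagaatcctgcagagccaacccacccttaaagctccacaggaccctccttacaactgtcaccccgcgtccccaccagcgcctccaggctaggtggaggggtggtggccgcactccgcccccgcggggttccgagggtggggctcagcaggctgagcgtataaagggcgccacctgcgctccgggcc
Aqp7: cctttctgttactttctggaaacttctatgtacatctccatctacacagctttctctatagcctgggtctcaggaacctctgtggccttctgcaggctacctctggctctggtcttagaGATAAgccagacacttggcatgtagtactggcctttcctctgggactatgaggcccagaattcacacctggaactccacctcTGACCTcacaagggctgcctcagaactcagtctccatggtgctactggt
Over the same 250 bases, 17.8% of 32851 promoters held TGACG, 22.6% held GATAA and 14% held AGGTCA. Aqp2 had the cAMP element core at -211 and the GATA motif at -202, both on the reverse strand, and Aqp7 had the GATA motif at -131 and the nuclear receptor motif at -49. Aqp1 and Aqp3 had none of these letters in this window. A match describes the sequence and is not a measured binding site. Aqp7 and Aqp3 are adjacent protein-coding genes in that assembly, and both carried called decreases in WT kidneys.

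With ANG II, WT kidneys had more Aqp1 RNA and less Aqp3, Aqp7 and Avpr2 RNA. Of the 19 probe sets 7 were called, 1 higher and 6 lower, against 24.1% of all probe sets on the array (10.9% higher and 13.3% lower). The groups did not overlap for 8 of the 19, against 39% of all probe sets. The median log2 change of the 19 was 0.02, beside 0.05 for all probe sets. In KO kidneys ANG II was accompanied by lower Aqp1, Aqp3 and Slc14a2, and 1 of the Aqp7 probe sets was lower too. There 5 of the 19 were called, all lower, against 9.91% called on the array (3.6% higher and 6.31% lower). The groups did not overlap for 9 of the 19 (34.6% of all probe sets), and the median was -0.31 beside 0.05 for all. The KO response minus the WT response was called for 3 of the 19, against 9.78% of all probe sets (5.7% higher and 4.08% lower), namely Aqp1 (lower), Aqp7 and Aqp11 (both higher). The responses and genotype comparisons share arrays, so their values are set side by side and are not independent of each other.

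**Figure D1:**
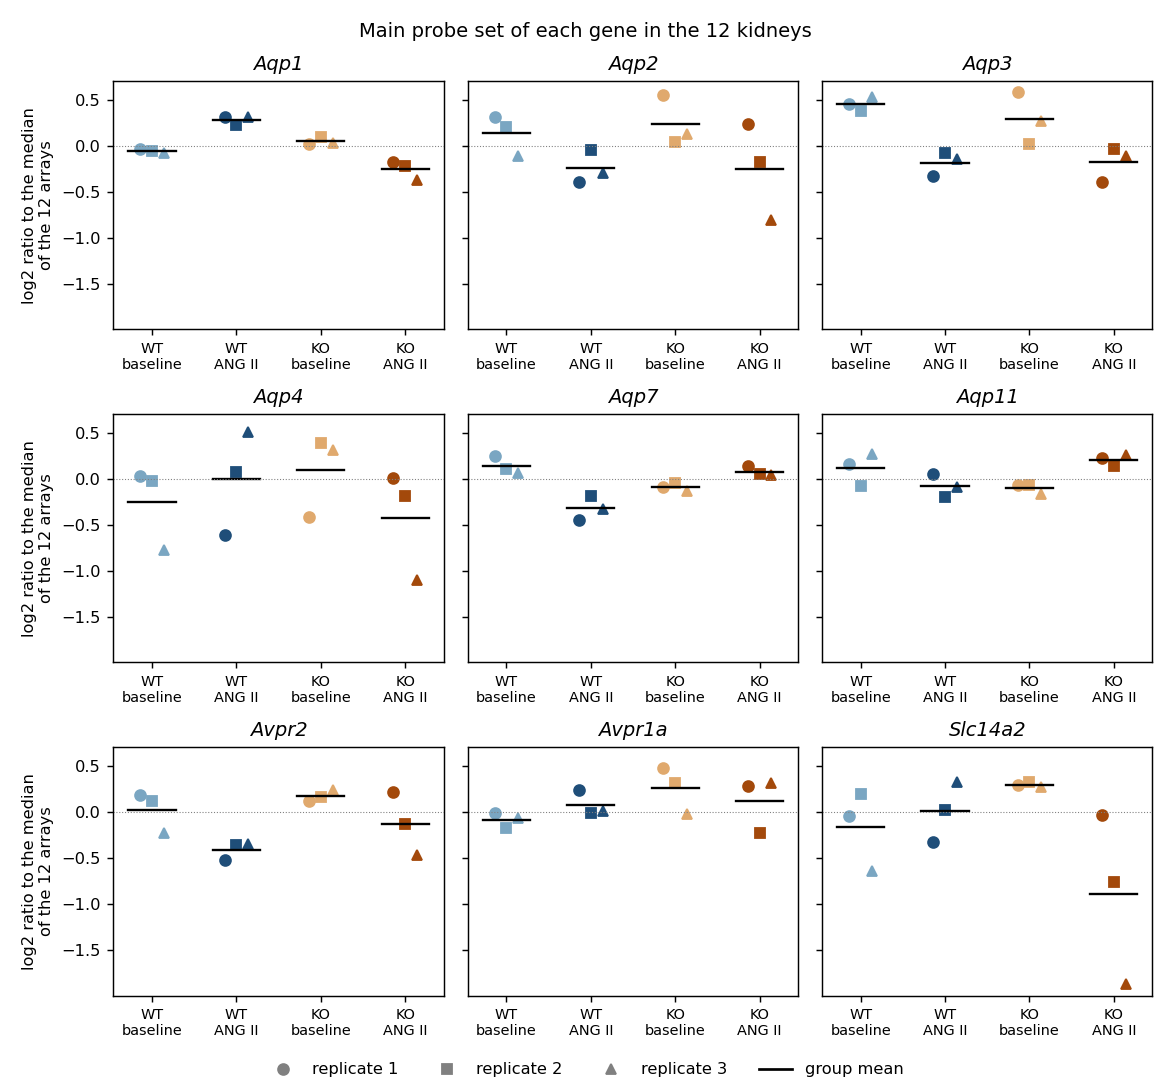
Log2 ratio of each of the 12 kidneys to the median over the 12 arrays (vertical axis) for the main probe set of each of the 9 genes, by group, with the group mean as a bar and the replicate number as the symbol. Aqp1 is highest in the 3 WT ANG II kidneys and lowest in the 3 KO ANG II kidneys, Aqp3 is lower with ANG II in both genotypes, and Aqp4 and Slc14a2 scatter widely within groups.

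Aqp1, the constitutive water channel of the proximal tubule and thin descending limb, moved in opposite directions in the 2 genotypes. Its single probe set (1416203_at) read 0.981, 0.966 and 0.952 at WT baseline and 1.25, 1.17 and 1.24 in WT with ANG II. It read 1.02, 1.07 and 1.02 at KO baseline and 0.886, 0.862 and 0.773 in KO with ANG II. The 4 groups did not overlap at all, with WT ANG II highest and KO ANG II lowest. In WT it rose by a log2 change of 0.34 ± 0.08 (adjusted p = 0.0081). In KO the log2 change was -0.31 ± 0.08 (adjusted p = 0.0247). The difference of the responses was -0.64 ± 0.11 (adjusted p = 0.00292), and infused KO kidneys were below infused WT kidneys by a log2 change of -0.54 ± 0.08 (adjusted p = 0.000409). The baseline groups, next to each other in the order of levels, differed by 0.10 (95% interval -0.06 to 0.27, adjusted p = 0.462), and this was not called. Most measured markers of the proximal tubule, where Aqp1 is made, went the other way in WT. With ANG II 7 of 12 measured were lower and 1 was higher (Cubn, 0.65), beside 14.5% and 9.61% of all genes. The mean log2 ratio of the 12 ran from -0.59 to -0.451 in WT ANG II against 0.00199 to 0.0957 at WT baseline. Their median ran from -0.385 to -0.29 against -0.0448 to 0.13. In KO 1 of the 12 was called, higher, beside 4.28% of all genes. Of 4 red blood cell markers 2 were measured, and they moved with Aqp1 in WT, where 1 was called, higher. Their mean log2 ratio ran from 0.259 to 0.569 in WT ANG II against -0.344 to -0.254 at WT baseline. In KO none was called, with means of -0.0743 to 0.178 with ANG II against -0.183 to 0.144 at baseline. The part of these markers in the Aqp1 changes was not tested. The WT call of Aqp1, its difference of responses and its contrast of infused groups held in every alternative run. The KO call was lost without any 1 KO baseline array (adjusted p = 0.0589, 0.0939 and 0.0554) and without KO ANG II replicate 2 (0.0507) or 3 (0.113), and with only the KO groups in the fit (0.0506).

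Aqp7, a glycerol and water channel of the proximal straight tubule, gave 2 probe sets that disagreed in KO kidneys. On the main one (1418848_at) the ratios were 1.19, 1.08 and 1.05 at WT baseline and 0.738, 0.881 and 0.797 in WT with ANG II. They were 0.94, 0.971 and 0.917 at KO baseline and 1.10, 1.04 and 1.03 in KO with ANG II. All WT ANG II kidneys lay below all others, and the KO groups did not overlap either. The log2 change was -0.46 ± 0.09 in WT (adjusted p = 0.00252) and 0.16 ± 0.09 in KO (adjusted p = 0.234, not called). The responses differed by 0.62 ± 0.12 (adjusted p = 0.00651), and infused KO kidneys were above infused WT kidneys by 0.39 ± 0.09 (adjusted p = 0.00668).

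The other Aqp7 probe set (1418849_x_at, a type whose probes can match further transcripts) read 1.31, 1.17 and 1.09 at WT baseline and 0.949, 1.05 and 0.724 with ANG II. It read 0.952, 1.08 and 1.19 at KO baseline and 0.765, 0.775 and 0.808 in KO with ANG II. Here both genotypes were lower with ANG II. The log2 changes were -0.41 ± 0.13 in WT (adjusted p = 0.0335) and -0.45 ± 0.13 in KO (adjusted p = 0.0394), and their difference was -0.04 (95% interval -0.43 to 0.34, adjusted p = 0.915). So a decrease of Aqp7 in WT was called by both probe sets, and a difference between the genotypes by 1 of them. With the mean of both probe sets, the WT change was still called (-0.43, adjusted p = 0.00419), and neither the difference of the responses (0.29, adjusted p = 0.155) nor the contrast of infused groups (0.10, adjusted p = 0.418) was. The proximal tubule markers that were lower in WT ANG II moved with Aqp7 there, and their part was not tested. The WT call of 1418849_x_at was lost when WT baseline replicate 1 (adjusted p = 0.135), WT baseline replicate 2 (0.0684) or WT ANG II replicate 3 (0.135) was left out. It was also lost with only the WT groups in the fit (0.0641) and with array weights (0.0697).

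Aqp11, an aquaporin of intracellular membranes in the proximal tubule, had 3 probe sets. The main one (1429254_at) read 1.12, 0.948 and 1.21 at WT baseline and 1.04, 0.875 and 0.941 in WT with ANG II, groups that overlapped. At KO baseline it read 0.961, 0.956 and 0.894, and in KO with ANG II 1.18, 1.10 and 1.20, with no overlap. Neither response was called, at log2 changes of -0.20 ± 0.10 in WT (adjusted p = 0.16) and 0.31 ± 0.10 in KO (adjusted p = 0.0644). The KO change was called with only the KO groups in the fit (adjusted p = 0.0413), with array weights (0.0426) and without WT baseline replicate 2 (0.0471). Their difference was called at 0.50 ± 0.14 (adjusted p = 0.0367). That call was lost in 10 of 19 alternatives: when the fit left out WT baseline replicate 1 (adjusted p = 0.0809) or 3 (0.0913), WT ANG II replicate 2 or 3 (0.0818 and 0.0633), KO baseline replicate 1, 2 or 3 (0.0617, 0.0632 and 0.0824) or KO ANG II replicate 1 or 3 (0.0676 and 0.0906), and with quantile normalization (0.0556). The other Aqp11 probe sets differed between responses by 0.19 (1447606_x_at, adjusted p = 0.483) and -0.07 (1455846_at, adjusted p = 0.851), and neither was called. With the mean of the 3 probe sets, Aqp11 was called higher with ANG II in KO (0.24, adjusted p = 0.0426), and the difference of the responses was not called (0.21, adjusted p = 0.199).

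Avpr2, the V2 receptor through which vasopressin acts on the collecting duct, was lower in WT kidneys with ANG II. The ratios were 1.14, 1.09 and 0.855 at WT baseline and 0.696, 0.78 and 0.789 with ANG II. At KO baseline they were 1.09, 1.12 and 1.19, and in KO with ANG II 1.17, 0.914 and 0.725. The WT groups did not overlap, while KO ANG II replicate 1 lay within the KO baseline range. The log2 change was -0.43 ± 0.15 in WT (adjusted p = 0.0476) and -0.30 ± 0.15 in KO (adjusted p = 0.21, not called), and the responses differed by 0.13 (95% interval -0.32 to 0.59, adjusted p = 0.754). The WT call lay close to the threshold. It was lost when WT baseline replicate 1 (adjusted p = 0.175) or 2 (0.13) was left out. The same held for WT ANG II replicate 1, 2 or 3 (0.111, 0.0825 and 0.081), any KO baseline array (0.0567 to 0.059) or KO ANG II replicate 2 (0.0585). Quantile normalization (0.187) and array weights (0.0579) lost it too. In KO the change of Avpr2 was -0.47 without KO ANG II replicate 1, and it was then called (adjusted p = 0.0426).

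Avpr1a, the V1a receptor, which signals through calcium and is found in vessels and in parts of the distal nephron, had 2 probe sets and no call in any comparison. Over the 12 kidneys 1418603_at ran from 0.856 to 1.40 and 1418604_at from 0.782 to 1.17. The log2 change with ANG II was 0.16 and 0.09 in WT and -0.13 and -0.12 in KO, with adjusted p from 0.437 to 0.656. For the first probe set, 95% intervals ran from -0.16 to 0.48 in WT and from -0.45 to 0.19 in KO.

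Aqp2, the vasopressin-regulated channel of the apical membrane, was measured by 1 probe set (1418903_at). It read 1.24, 1.16 and 0.932 at WT baseline and 0.766, 0.971 and 0.815 in WT with ANG II. The KO kidneys read 1.47, 1.03 and 1.09 at baseline and 1.18, 0.888 and 0.572 with ANG II. Group means were lower with ANG II in both genotypes, and the ratios overlapped in both. The log2 change was -0.38 ± 0.21 in WT (95% interval -0.84 to 0.08, adjusted p = 0.203) and -0.49 ± 0.21 in KO (95% interval -0.95 to -0.03, adjusted p = 0.16). Neither was called. Without KO ANG II replicate 1 the KO change was -0.73 and was called (adjusted p = 0.0361). The infused groups differed by -0.01 (95% interval -0.47 to 0.45).

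Aqp3, the basolateral channel through which water and glycerol leave principal cells, showed the largest decreases among the 19 probe sets in WT. The probe set 1422008_a_at read 1.45, 1.56 and 1.46 at WT baseline and 0.657, 0.842 and 0.445 with ANG II. In KO it read 1.50, 1.18 and 1.16 at baseline and 0.735, 0.828 and 0.791 with ANG II. Every infused kidney lay below every baseline kidney. The log2 change was -1.25 ± 0.17 in WT (adjusted p = 0.000361), a ratio of 0.421 to baseline. In KO it was -0.70 ± 0.17 (adjusted p = 0.0232), a ratio of 0.616.

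The main Aqp3 probe set (1422007_at) read 1.37, 1.31 and 1.45 at WT baseline and 0.796, 0.947 and 0.905 with ANG II, and in KO 1.50, 1.02 and 1.21 at baseline and 0.762, 0.982 and 0.926 with ANG II. Again no infused kidney reached a baseline kidney. The log2 change was -0.64 ± 0.13 in WT (adjusted p = 0.00451) and -0.47 ± 0.13 in KO (adjusted p = 0.0397). The probe set 1450460_at changed by -0.58 ± 0.11 in WT (adjusted p = 0.00221) and by -0.33 ± 0.11 in KO (adjusted p = 0.0603, not called), also with no overlap. The remaining one (1447727_at) did not follow the others, with log2 changes of 0.01 in WT (95% interval -0.21 to 0.22, adjusted p = 0.973) and 0.14 in KO (adjusted p = 0.40).

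No difference between the WT and KO responses was called for Aqp3: the 4 probe sets gave 0.17, 0.55, 0.13 and 0.24, with adjusted p from 0.189 to 0.636. For 1422008_a_at the 95% interval of the difference ran from 0.02 to 1.08, and without WT ANG II replicate 2 it was called (0.76, adjusted p = 0.0415). The 3 called WT decreases held in every alternative run. Of 9 principal cell markers 1 (Krt8) was called in WT, lower, beside 14.5% of all genes. The mean log2 ratio of the 9 was -0.128 to -0.112 in WT ANG II against -0.162 to 0.0993 at baseline. In KO 4 of 9 were lower (Hsd11b2, Gata3, Krt8 and Krt18), beside 5.73% of all genes. The KO means were -0.37 to -0.0028 with ANG II against 0.282 to 0.49 at baseline. The part of these markers in the KO changes of Aqp3 was not tested.

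**Figure D2:**
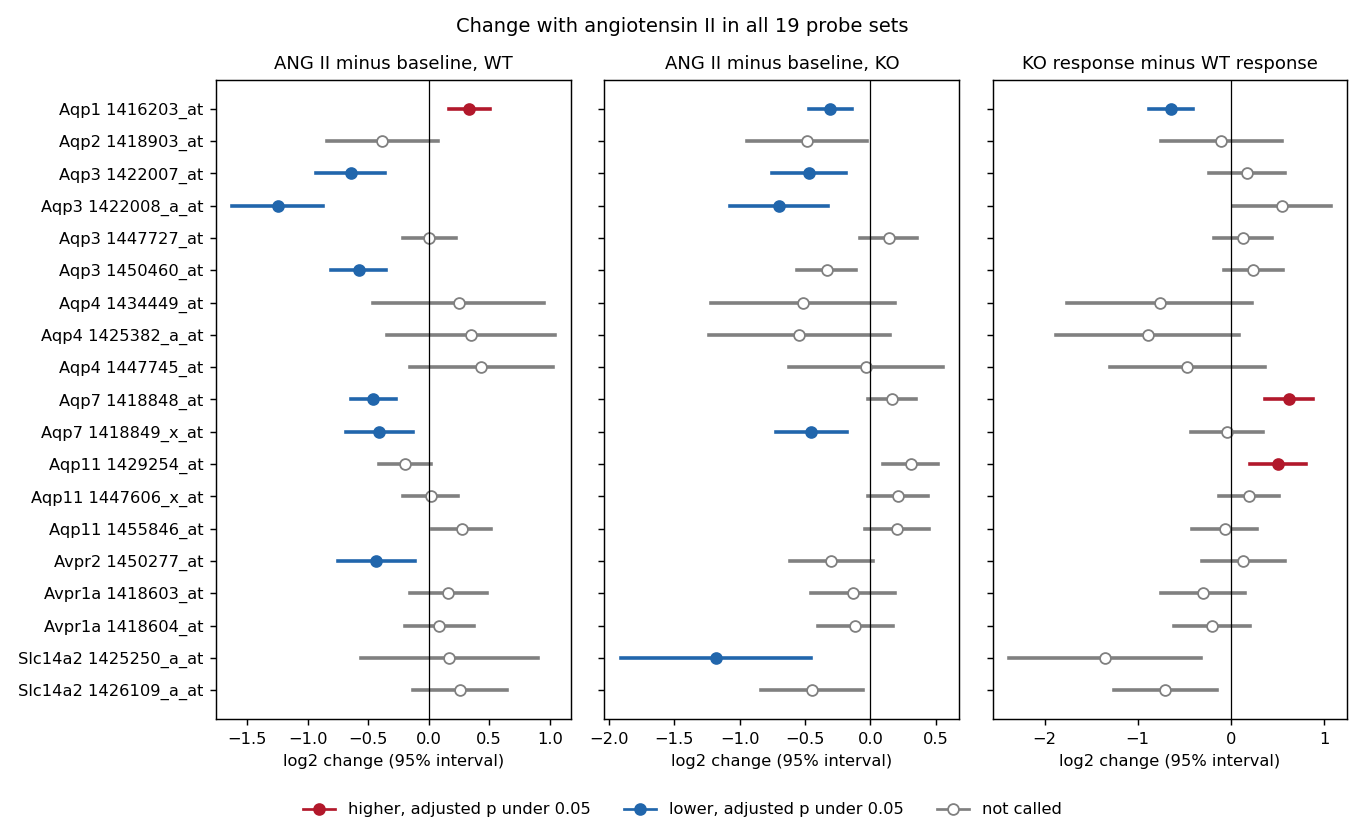
Log2 change with ANG II (horizontal axis, point with its 95% interval) for all 19 probe sets in WT, in KO and as the KO response minus the WT response; filled points were called at an adjusted p under 0.05, red for higher and blue for lower. In WT 6 blue points and 1 red point (Aqp1) are filled, in KO 5 blue points, and in the difference Aqp1, Aqp7 and Aqp11, while the intervals of Aqp4 and of Slc14a2 1425250_a_at are the widest.

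Aqp4, the other basolateral channel of principal cells and most abundant in the inner medulla, was not called in any comparison, and its spread between kidneys of 1 group was among the largest on the array. Its main probe set (1434449_at) read 1.03, 0.988 and 0.589 at WT baseline and 0.659, 1.06 and 1.43 in WT with ANG II. At KO baseline it read 0.751, 1.31 and 1.25, and in KO with ANG II 1.01, 0.883 and 0.467. In 3 of the groups 1 kidney lay far below the others, the infused WT kidneys were spread widely, and all groups overlapped. The log2 change was 0.25 ± 0.33 in WT (95% interval -0.46 to 0.95, adjusted p = 0.605) and -0.52 ± 0.33 in KO (95% interval -1.22 to 0.19, adjusted p = 0.325). The other probe sets (1425382_a_at and 1447745_at) changed by 0.35 and 0.43 in WT and by -0.54 and -0.03 in KO. None of the 3 was called in the difference of responses (adjusted p from 0.253 to 0.514).

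Slc14a2, the urea transporter of the inner medulla, was lower in KO kidneys with ANG II. Its probe set 1425250_a_at read 0.975, 1.15 and 0.641 at WT baseline and 0.802, 1.02 and 1.25 in WT with ANG II. At KO baseline it read 1.23, 1.26 and 1.21, and in KO with ANG II 0.982, 0.593 and 0.274. The KO groups did not overlap, and KO ANG II replicate 3 had the lowest ratio of all. The log2 change in KO was -1.18 ± 0.34 (95% interval -1.91 to -0.45, adjusted p = 0.0425), in WT 0.17 ± 0.34 (adjusted p = 0.736), and the difference, -1.35 ± 0.48, was not called (adjusted p = 0.0949). Without KO ANG II replicate 1 that difference was -1.78 and was called (adjusted p = 0.0148), and it was called with low-spread probe sets left out (0.0461). The other probe set (1426109_a_at) read 0.936, 1.57 and 1.52 at KO baseline and 1.21, 0.922 and 0.797 with ANG II, and its log2 change of -0.45 ± 0.18 was not called (adjusted p = 0.133). Without KO baseline replicate 1, the lowest of its group, that change was -0.69 and was called (adjusted p = 0.0184). Its difference of responses was called without KO baseline replicate 1 (-0.95, adjusted p = 0.0146) or KO ANG II replicate 1 (-0.87, adjusted p = 0.0481). Slc14a1, the neighbouring urea transporter gene of the vasa recta, fell in KO by 1.35 on the log2 scale (adjusted p = 0.0321), from ratios of 1.72, 1.58 and 1.83 to 1.07, 0.766 and 0.369. In WT, unlike Slc14a2, it also read lower on average with ANG II, though not called. The WT ratios were 1.33, 1.09 and 0.637 at baseline and 0.428, 0.926 and 0.859 with ANG II.

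The calls in KO kidneys depended on single arrays more than those in WT. Without KO ANG II replicate 3 none of the 19 probe sets was called in KO by limma, with 7 at an unadjusted p under 0.05: Slc14a2 then changed by -0.69 (adjusted p = 0.129), the called Aqp3 probe sets by -0.50 and -0.71 (0.081 and 0.0661), Aqp1 by -0.25 (0.113) and 1418849_x_at of Aqp7 by -0.47 (0.0861). The direction of all 5 was kept. The call of Slc14a2 1425250_a_at was also lost without any 1 KO baseline array (adjusted p = 0.0931, 0.112 and 0.0886), without KO ANG II replicate 2 (0.0844), WT baseline replicate 1 (0.0563) or WT ANG II replicate 2 (0.0562), and with only the KO groups in the fit (0.0805). That of Aqp3 1422007_at was lost without KO baseline replicate 1 (adjusted p = 0.143) or 3 (0.0821), KO ANG II replicate 1 (0.114), WT baseline replicate 1 (0.0529) or 2 (0.0525), and with only the KO groups in the fit (0.0827). The Aqp3 probe set 1422008_a_at lost it without KO baseline replicate 1 (adjusted p = 0.0875) or 2 (0.0506) and KO ANG II replicate 1 (0.0567). For Aqp7 1418849_x_at it was lost without KO baseline replicate 2 (adjusted p = 0.107) or 3 (0.13), KO ANG II replicate 1 (0.0797) or 2 (0.1) and WT baseline replicate 2 (0.0539). The count of calls was 2 without KO baseline replicate 1, 2 without KO baseline replicate 2, 1 without KO baseline replicate 3, 2 without KO ANG II replicate 2, 3 without WT baseline replicate 1, and 4 or 5 without each of the other arrays. Markers of macrophages, which are no cells of the tubule, moved in the same comparison: 7 of 9 were lower with ANG II in KO, beside 5.73% of all genes. Their mean log2 ratio was 0.897 to 1.52 at KO baseline against -0.114 to 0.358 in KO ANG II. In WT 4 of 9 were lower too, beside 14.5%, with means of -0.41 to 0.0063 at baseline against -0.864 to -0.434 with ANG II. The difference of responses was called for 1 of the 9, lower. Other markers from outside the tubule were called lower with ANG II in KO as well. They were 4 of 9 of the endothelium, where 1 was higher, 2 of 6 of vascular smooth muscle and mesangium and 2 of 5 of podocytes. Of the adrenal markers 1 of 7 was higher. The part of all these markers in the KO changes was not tested.

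The 19 probe sets differed widely in how much kidneys of 1 group varied. The SD within groups was 0.52, 0.51 and 0.43 on the log2 scale for the 3 Aqp4 probe sets and 0.54 for Slc14a2 1425250_a_at, which put these 4 between the percentiles 99.6 and 99.8 of all probe sets. Aqp2 (0.33) was at percentile 98.8, Slc14a2 1426109_a_at (0.27) at 97.2 and Aqp3 1422008_a_at (0.26) at 96.4. Aqp1, by contrast, had an SD of 0.06 (percentile 4.85), and Aqp7 1418848_at of 0.09 (percentile 16), beside a median of 0.13 for all. The widest spreads were those of genes of the collecting duct and inner medulla, and the precision of the tests above follows it: the standard error was 0.08 for Aqp1 and 0.33 for Aqp4.

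**Figure D3:**
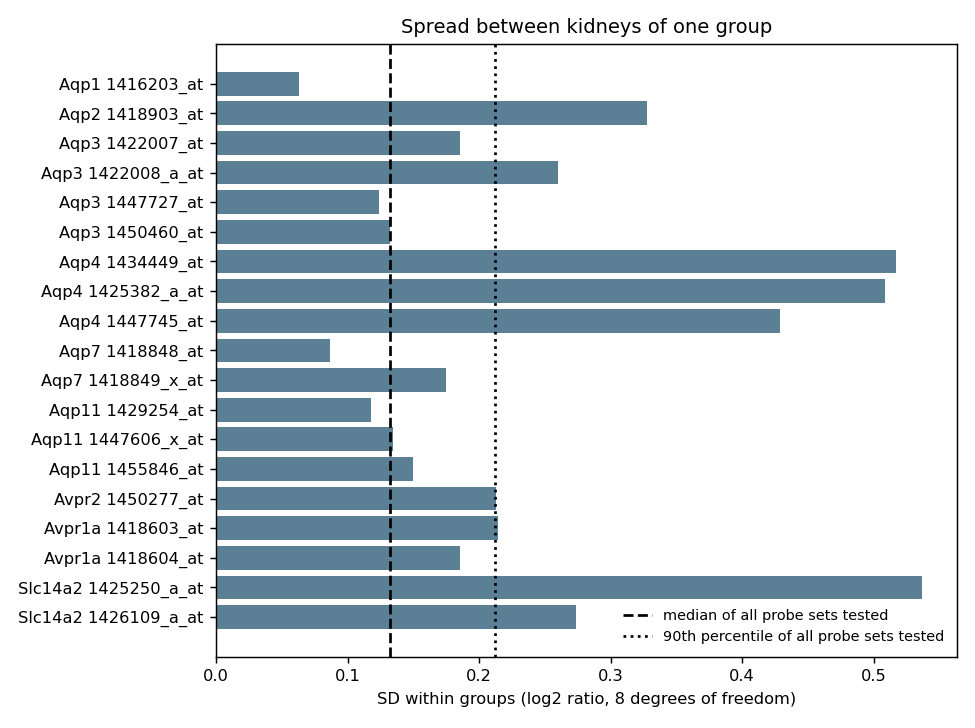
SD of log2 ratios between kidneys of 1 group (horizontal axis, 8 degrees of freedom) for each of the 19 probe sets, with the median (dashed) and the 90th percentile (dotted) of all probe sets tested. The bars of Aqp4, Slc14a2 and Aqp2 pass the dotted line by far, and those of Aqp1 and Aqp7 1418848_at stop short of the dashed line.

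For Aqp4, Avpr2, Slc14a2, Aqp1, Aqp2 and 1 Aqp7 probe set the kidney of lowest rank in a group was largely the same one. Of a list of 7 markers of the thin limbs and inner medulla, 5 were measured (Slc4a11, Cryab, Fst, Corin and Bst1). Their mean log2 ratio was lowest in WT baseline replicate 3 (-0.197), WT ANG II replicate 1 (-0.284), KO baseline replicate 1 (-0.0615) and KO ANG II replicate 3 (-0.684), within their groups. The lowest kidney was the same in 4 of 4 groups for the 3 Aqp4 probe sets, Avpr2 and Slc14a2 1426109_a_at, and in 3 of 4 groups for Aqp1, Aqp2, Aqp7 1418848_at and Slc14a2 1425250_a_at. Over all probe sets, 1.66% matched in 4 groups and 9.53% in 3. Only the rank was matched, whatever the gap to the next kidney. At KO baseline Aqp1 deviated from its group mean by -0.0258 in replicate 1 and -0.0230 in replicate 3, nearly a tie. Aqp2 went the other way in that group: replicate 1, lowest for the markers, was its highest kidney (1.47). Other marker lists had the same low kidneys: the mean of the thick ascending limb markers was lowest in them in 4 of 4 groups, and those of the principal cell and adipocyte markers in 3 of 4. Single markers could differ from the mean, and Cryab was highest, not lowest, in WT baseline replicate 3 among the WT baseline kidneys. Aqp3 did not follow: its 4 probe sets matched in 0 or 1 group. Nor did Aqp11, with 0 or 1 group for each of its 3 probe sets, or Avpr1a, with 0 for both. Aqp7 1418849_x_at matched in 2 groups, as did 26.7% of all probe sets. In KO ANG II replicate 3 the ratios were 0.572 for Aqp2, 0.467 for Aqp4, 0.725 for Avpr2 and 0.274 for Slc14a2 1425250_a_at.

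**Figure D4:**
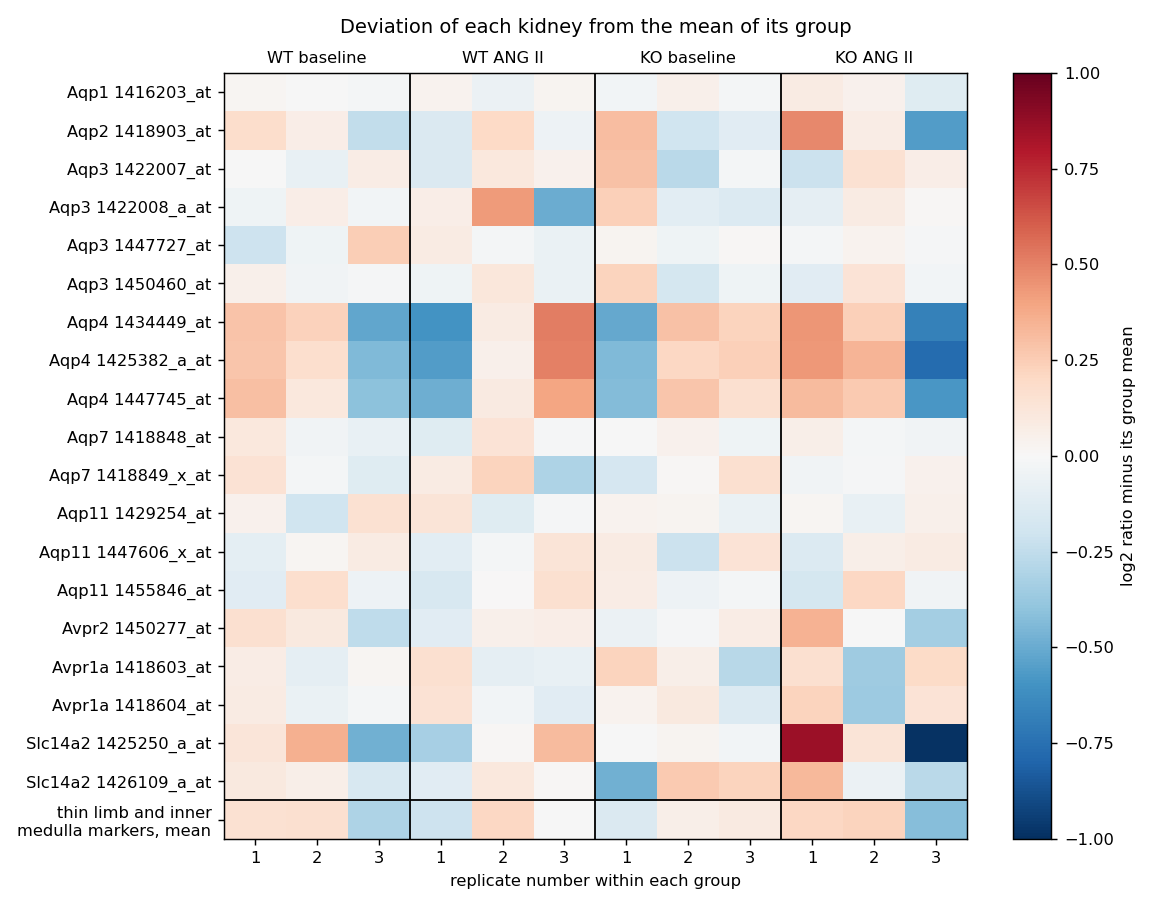
Log2 ratio of each kidney minus the mean of its group (colour scale, blue for below and red for above) for the 19 probe sets and, in the bottom row, the mean of 5 markers of the thin limbs and inner medulla. The rows of Aqp4 and of the markers are blue in WT baseline replicate 3, WT ANG II replicate 1, KO baseline replicate 1 and KO ANG II replicate 3.

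With the mean of these 5 markers as a covariate, an alternative chosen after the data were seen, the calls changed with it. The markers themselves changed with ANG II, by a median log2 change of -0.10 in WT and -0.33 in KO. Fst was called lower in both (adjusted p = 0.0307 and 0.0285 in limma), while Cryab changed by 0.24 and 0.05 and was not called. The covariate can thus take up part of the infusion change, so the adjusted values do not give the ANG II change alone. In WT all 3 Aqp4 probe sets were then called higher with ANG II, at log2 changes of 0.58, 0.68 and 0.71 (adjusted p = 0.0455, 0.0187 and 0.00873). Aqp1, the 3 Aqp3 probe sets and Aqp7 1418848_at were still called in WT, while Avpr2 (adjusted p = 0.0557) and Aqp7 1418849_x_at (0.0633) were not. In KO limma then called none of the 19, with 8 at an unadjusted p under 0.05. The difference of responses of Slc14a2 1425250_a_at was then -1.10 and was called (adjusted p = 0.0356).

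Between genotypes at baseline, of the 19 probe sets 1 was called, lower in KO, against 6.52% of all probe sets (4.87% higher and 1.65% lower), and the groups did not overlap for 5 (30.9% of all). It was 1447606_x_at of Aqp11, which read 1.02, 1.11 and 1.16 at WT baseline and 0.847, 0.69 and 0.879 at KO baseline, a log2 difference of -0.45 ± 0.11 (adjusted p = 0.0244). The other Aqp11 probe sets differed by -0.22 and -0.19 and were not called. The call was lost without WT baseline replicate 2 (adjusted p = 0.0748) or 3 (0.106) and without KO baseline replicate 2 (0.112). The median difference of the 19 was 0.10, beside -0.03 for all probe sets. Of the differences that were not called, some were higher in KO with wide intervals: Slc14a2 was at 0.46 (95% interval -0.27 to 1.19) and 0.51 (0.12 to 0.90), Aqp4 at 0.35 (-0.36 to 1.05), 0.49 (-0.20 to 1.18) and 0.23 (-0.36 to 0.82), and Avpr1a at 0.34 (0.02 to 0.66) and 0.19 (-0.09 to 0.48). Others were lower in KO with narrower intervals. They included Aqp7 1418848_at at -0.23 (-0.41 to -0.04), Aqp3 1447727_at at -0.24 (-0.46 to -0.02) and Aqp11 1429254_at at -0.22 (-0.43 to -0.003).

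Under ANG II 2 of the 19 probe sets differed between genotypes, against 19.8% of all probe sets (11.7% higher and 8.17% lower), and the groups did not overlap for 5 (35.1% of all). They were Aqp1, lower in KO, and Aqp7 1418848_at, higher in KO, with the values given above. Aqp3 was not called: 1422007_at differed by 0.01 (95% interval -0.28 to 0.29), 1422008_a_at by 0.32 (-0.05 to 0.70), 1447727_at by -0.11 and 1450460_at by 0.06. Avpr2 was 0.28 higher in KO (95% interval -0.03 to 0.60, adjusted p = 0.184) and Slc14a2 1425250_a_at -0.89 (95% interval -1.62 to -0.16, adjusted p = 0.0776), and neither was called. The Aqp11 probe sets went in opposite directions, and none was called. In KO 1429254_at was 0.29 higher (95% interval 0.08 to 0.50, adjusted p = 0.0549). The others were lower in KO, 1447606_x_at at -0.26 (-0.49 to -0.03, adjusted p = 0.104) and 1455846_at at -0.25 (-0.50 to -0.01, adjusted p = 0.131). The median difference of the 19 was -0.11, beside -0.04 for all probe sets.

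Genes that carry the vasopressin signal from the receptor to Aqp2 in the membrane were taken as a list of 40, all measured, with 1 probe set per gene. In WT 3 were higher and 9 lower with ANG II, beside 9.61% higher and 14.5% lower among all 18193 genes, and the list's median log2 change was -0.05 beside 0.03 for all genes. The lower ones included Hspa8 (-1.72 ± 0.20), a chaperone that binds Aqp2 during endocytosis, Prkar2b (-0.75 ± 0.18), a regulatory subunit of protein kinase A, and Rab11a (-0.57 ± 0.09), a GTPase of recycling endosomes. Vamp2 (-0.56 ± 0.08), a vesicle protein for fusion with the membrane, was lower as well. The higher ones were Pde4d (0.55 ± 0.11), a phosphodiesterase that degrades cAMP, the ubiquitin ligase Nedd4l (0.54 ± 0.14) and Stx3 (0.28 ± 0.09), a syntaxin of the apical membrane.

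In KO 0 of the 40 were higher and 5 lower, beside 4.28% and 5.73% of all genes, with a median of -0.08 beside 0.06. They were Hspa8 (-1.18 ± 0.20), Prkar2b (-0.63 ± 0.18), Nedd4 (-0.49 ± 0.09), Vamp2 (-0.39 ± 0.08) and Ezr (-0.30 ± 0.08). The difference of the responses was called for 2, beside 6.95% higher and 3.29% lower among all genes: Pde4d at -0.76 ± 0.16 (adjusted p = 0.00883) and Rab11a at 0.55 ± 0.13 (adjusted p = 0.019). At baseline 3 were higher in KO (Hspa8, Arrb2 and Sipa1) and 0 lower, beside 4.52% and 2.04%, and under ANG II 9 were higher and 4 lower, beside 13.7% and 7.87%.

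Of the transcription factors of the collecting duct 13 of 14 were measured. In KO 7 were lower with ANG II and 0 higher, beside 5.73% and 4.28% of all genes, with a median of -0.35 beside 0.06, among them Ehf (-1.29 ± 0.20), Gata3 (-0.53 ± 0.13), Nfat5 (-0.52 ± 0.16) and Elf3 (-0.48 ± 0.13). In WT 2 were higher (Nfat5 at 0.60 ± 0.16 and Hoxb7 at 0.43 ± 0.10) and 1 lower (Nr3c1 at -0.36 ± 0.09), beside 9.61% and 14.5%, with a median of -0.02 beside 0.03. The all-gene shares and medians given for these 2 responses hold for the next lists too. So do the shares of all genes for the difference of responses, 6.95% higher and 3.29% lower. Those between genotypes were 4.52% and 2.04% at baseline, and 13.7% and 7.87% under ANG II. Among the transcription factors the difference of responses was called for 5, with 4 lower in KO (Ehf, Nfat5, Gata3 and Tfcp2l1) and Nr3c1 higher. At baseline 5 were higher in KO (Ehf, Gata3, Nfat5, Tfcp2l1 and Gata2) and 0 lower. Under ANG II 1 was higher and 1 lower in KO. Gata3 is a principal cell marker too, and Nfat5 belongs also to the next list.

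Genes of the response to high tonicity and of urea handling gave 11 measured of 12. In WT 2 were higher (Sgk1 at 0.87 ± 0.11 and Nfat5, the tonicity factor) and 1 lower (Hspa4l at -0.39 ± 0.12), with a median of -0.15. In KO 0 were higher and 4 lower, namely Slc14a1, Sgk1 (-0.86 ± 0.11), the amino acid carrier Slc38a2 (-0.79 ± 0.18) and Nfat5, with a median of -0.43. The difference was called for 2, both lower: Sgk1 (-1.73 ± 0.15) and Nfat5 (-1.12 ± 0.22). At baseline 3 were higher in KO, and under ANG II 2 were higher and 2 lower.

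Local modulators of vasopressin action, such as prostaglandin and endothelin genes, gave 11 measured of 14. In WT 2 were higher, the endothelin receptor Ednrb (0.48 ± 0.11) and the calcium-sensing receptor Casr (0.40 ± 0.09), and 0 lower, with a median of 0.04. In KO 4 were lower, namely the prostaglandin receptors Ptger4 (-0.74 ± 0.17) and Ptger1 (-0.56 ± 0.14), Edn1 (-0.58 ± 0.12) and Ednrb (-0.38 ± 0.11), and Bdkrb2 was higher (0.44 ± 0.11), with a median of -0.20. The difference was called for 3, all lower (Ednrb, Edn1 and Casr). At baseline 2 were higher in KO (Ptger4 and Edn1), and under ANG II 2 were lower (Ednrb and Casr). Of the other aquaporins and the vasopressin and oxytocin genes, 10 of 11 were measured, and limma called none of them with ANG II in WT or KO (2 and 2 at an unadjusted p under 0.05), in the difference (0) or at baseline (3). Under ANG II Oxt (-0.46 ± 0.12) and Avp (-0.25 ± 0.08) were lower in KO.

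The counts of these lists depended on single arrays. For the KO response the vasopressin signal list had 3 lower genes without any 1 KO baseline array, KO ANG II replicate 2 or KO ANG II replicate 3. The transcription factors had 3, 1 and 4 lower genes without KO baseline replicates 1, 2 and 3, 3 with KO ANG II replicate 2 left out and 1 in the fit that lacked KO ANG II replicate 3. For the tonicity and urea genes these counts were 2, 1, 2, 2 and 1, and for the local modulators 2, 2, 3, 2 and 1. With the thin limb and inner medulla markers as a covariate, an alternative added after the data were seen, the first 3 lists had 3, 1 and 2 lower genes in KO, and the local modulators lost all their KO calls. For the WT response the vasopressin signal list had 1 higher and 6 lower genes without WT baseline replicate 1, and the local modulators had 2 higher and 2 lower without KO ANG II replicate 3. The difference of responses for the vasopressin signal was called for 4 genes when KO ANG II replicate 2 was left out, and for 1 in the fit that lacked KO ANG II replicate 3.

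The list counts between genotypes changed with single arrays as well. At baseline Hspa8, Arrb2 and Sipa1 all lost their calls without WT baseline replicate 3 or KO baseline replicate 2, and 1 gene of that list was called without KO baseline replicate 3. Of the transcription factors 1 was higher without WT baseline replicate 2 or any 1 KO baseline array, 2 were without WT baseline replicate 3 and 3 without WT baseline replicate 1. Of the tonicity and urea genes 1 was higher without WT baseline replicate 2 or 3 or KO baseline replicate 2 or 3. Markers of several cell types differed in the same comparison. Of the macrophage markers 8 of 9 were higher in KO at baseline, beside 4.52% of all genes. The macrophage means were 0.897 to 1.52 in KO against -0.41 to 0.0063 in WT. Also higher in KO were 3 of 6 markers of vascular smooth muscle and mesangium, 2 of 5 of podocytes and 2 of 9 of principal cells (Gata3 and Krt18). So were 1 of 9 of the endothelium and 1 of 2 of red blood cells, while 2 of 12 of the proximal tubule were lower. The part of these markers in these counts was not tested. Under ANG II the vasopressin signal count was 8 without WT ANG II replicate 3, 6 when KO ANG II replicate 1 was left out, and 5 both with quantile normalization and with only the groups compared. The tonicity and urea count was 2 without KO ANG II replicate 3 and 2 with quantile normalization. Of Oxt and Avp neither was called without WT ANG II replicate 2 or 3 or KO ANG II replicate 1 or 3, nor with quantile normalization.

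The genes whose 12 log2 ratios lay nearest to those of a member were found by the root mean square difference, over 18184 genes with 1 probe set each. Nearest to Aqp1 was Eif3f, at 0.0622 beside 0.201 for the deviation of Aqp1 itself from a ratio of 1, followed by 5730480H06Rik and Kng1. Nearest to Aqp7 was Apoo at 0.0614 (0.196 for Aqp7), followed by Atp5j2 and Mief2. Aqp3 had Dcaf6 at 0.135 (0.337), then Cdkn1b and Pam, and Avpr2 had Tiam1 at 0.103 (0.289), then Kcnk2 and Ehd4. For Aqp11 these were Blmh at 0.0608 (0.167), Afg1l and Pgap6. Slc14a2 had Sim2 at 0.26 (0.645), then Cdkn2b and Serpina1b.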

How the data were processed

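Total RNA of 12 mouse kidneys, 3 in each of the 4 groups that the sample titles give, was measured on Affymetrix Mouse Genome 430 2.0 arrays. Per the submitters' processing notes the authors used RMA (background correction, quantile normalization and a summary of probes). The deposited values are linear ratios, in which every array is divided by the median of the probe set. The sources used here do not state that division. It shows in the values themselves, whose median lay within 0.002 of 1 for 45099 of 45101 probe sets. After 64 control probe sets were left out, log2 ratios of 45037 probe sets were fitted with limma 3.58.1 in R 4.3.3, with a mean per group over all 12 arrays (8 residual and 5.83 prior degrees of freedom, no variance trend). The 5 comparisons were two-sided, with Benjamini-Hochberg adjustment over all probe sets of each and calls at an adjusted p under 0.05.

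Of the probe sets 34945 carried 1 gene symbol in the platform annotation, 932 several and 9160 none. The genes and gene lists were chosen with earlier results of these data known. Named were all probe sets of the 9 genes, up to 4 called genes of each pathway list with the largest changes and the 3 nearest genes of each member called by its main probe set. Pde4d, Nedd4l, Stx3, Ezr and other genes given beside counts of 5 or fewer fell outside that rule and were named after their values were seen. A gene's main probe set has the plainest name (_at before _a_at, _s_at and _x_at, then the lowest number). List genes that had no probe set with 1 symbol were not analysed here. Each array is a separate mouse per the series text, and the number of arrays limits the precision. No pair of arrays held identical values. Same-numbered arrays of WT baseline and WT ANG II deviated together (r from 0.13 to 0.19), whereas those of the other comparisons did not all do so. The procedure was also run on simulated data with independent noise in every value, where smaller changes were often missed. That simulation does not cover kidneys in which many genes vary together. Alternatives were a variance trend, a fit to the compared groups, quantile normalization, median centring, a block for the replicate number, weights for the arrays, a filter on low spread, 1 probe set or the mean of probe sets per gene, each array left out, and the marker covariate chosen after the data were seen.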

Additional observations from a re-analysis of the deposited data

Results flagged for a closer look

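The response to ANG II differed between KO and WT, by the interaction term of the limma fit, for 3 of the 19 probe sets. Aqp1 (1416203_at) had a KO response minus WT response of -0.643 on the log2 scale. Aqp7 (1418848_at) had a difference of 0.622, and the second Aqp7 probe set (1418849_x_at) one of -0.04. For Aqp11 (1429254_at) the difference was 0.505, beside 0.19 and -0.07 for the other Aqp11 probe sets.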

How the results depend on the processing

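The WT calls of Aqp1, of 3 Aqp3 probe sets and of Aqp7 1418848_at, and the called differences of Aqp1 and Aqp7 1418848_at, kept their direction and their side of the threshold in each of their 20 probe-set alternatives, whereas Avpr2 in WT lost its call in 12 of 20. The probe sets called among the 19 numbered 5 to 7 in the WT response when each array was left out in turn, 0 to 5 in the KO response, 2 to 4 in the difference, 0 to 2 between genotypes at baseline and 2 to 3 under ANG II. Over the whole array these counts ran from 5773 to 12277, from 2069 to 5183, from 2484 to 5104, from 1107 to 3329 and from 5021 to 10743. The KO count among the 19 was 3 with only the groups compared, 3 with the replicate block and 0 with the marker covariate, which was chosen after the data were seen, and the baseline count was 2 with quantile normalization and 2 with the covariate. Quantile normalization gave 5704 array-wide calls for the WT response (10876 as reported), 2867 for the difference (4404) and 4063 between infused genotypes (8934), and the share of higher calls moved from 44.9% to 32.9% in WT and from 58.8% to 70.9% between infused genotypes. With only the groups compared the last count was 4991. Array weights gave 6962 calls for the KO response (4465) and 4849 at baseline (2936), and the covariate 1747 for the KO response. The cause of these shifts was not tested.

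For the replicate block, same-numbered arrays deviated together in the WT comparison only, and 3 of 12 pairs had r over 0.1 (range -0.16 to 0.19). Pairs with different numbers reached an r of 0.24 between the infused genotypes and 0.22 in the KO comparison. The labels do not say whether a number marks a batch. The block, fitted over all 12 arrays, changed no WT call (7 of 19) and left 3 KO calls, since Aqp3 1422007_at (adjusted p = 0.0558) and Aqp7 1418849_x_at (0.0513) were lost.

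Changes of sign were limited to values that were not called. With quantile normalization the log2 change was -0.077 for Aqp3 1447727_at and -0.10 for Aqp11 1447606_x_at in WT, 0.088 for Aqp4 1447745_at in KO and 0.046 for Aqp11 1455846_at in the difference. Median centring gave -0.010 for Aqp3 1447727_at in WT. Averaging the probe sets of each gene gave a change of Aqp11 by 0.030 in WT and of Aqp7 by -0.14 in KO. The covariate gave -0.042 for Aqp3 1447727_at and -0.015 for Aqp11 1447606_x_at in WT, 0.068, 0.043 and 0.46 for the Aqp4 probe sets in KO and 0.025 for Aqp2 in the difference. With 1 array left out, WT changes ran from -0.097 to 0.13 (Aqp3 1447727_at), -0.012 to 0.55 (Aqp4 1434449_at), -0.047 to 0.067 (Aqp11 1447606_x_at) and -0.070 to 0.35 (Slc14a2 1425250_a_at). KO changes ran from -0.25 to 0.26 (Aqp4 1447745_at), -0.27 to 0.042 (Avpr1a 1418603_at) and -0.23 to 0.065 (Avpr1a 1418604_at). Differences of responses ran from -0.35 to 0.175 (Aqp2), -0.20 to 0.068 (Aqp7 1418849_x_at), -0.17 to 0.020 (Aqp11 1455846_at) and -0.039 to 0.31 (Avpr2).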
